A study of Bos indicus with 55 samples.

Results

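The endometrium of 9 cows whose conceptus vesicles were rich in let-7 microRNAs was compared with that of 9 cows whose conceptus vesicles were poor in them. Endometrium is the lining of the uterus, and extracellular vesicles (EVs) are small membrane particles that cells release. The series holds 55 libraries: 27 of endometrial poly(A) RNA and 28 of EV small RNA. An animal number in the labels tied 27 endometrium libraries to an EV library of the same pregnancy, and 1 EV library had no partner. For each of the 27, the counts of 8 let-7 entries (let-7a-5p, 7b, 7c, 7d, 7e, 7f, 7g and 7i) were summed. The sum was divided by all EV counts other than those of miR-2887 and miR-2904, the 2 most abundant entries. The 9 animals with the highest share form the let-7-rich group and the 9 with the lowest the let-7-poor group, so 18 of the 27 endometrium libraries were compared. The animals were thus chosen by their EV let-7 share, so EV values are given as a description with no test between groups. The endometrial values had no part in the choice.

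Recipient cows were Bos indicus, per the labels, and the conceptuses Bos taurus taurus, per the series' design text, and all were sampled on day 16 of pregnancy. A conceptus is the embryo with its membranes, and its EVs were those it shed into medium while cultured for 6 h. The conceptuses came from artificial insemination (in vivo), from in vitro fertilisation (IVF) or from nuclear transfer, where a donor cell's nucleus takes the place of the egg's own. The let-7-rich group held 3 in vivo, 4 IVF and 2 nuclear transfer conceptuses, and the let-7-poor group held 0, 5 and 4 of these. Males were 2 of the 9 let-7-rich and 6 of the 9 let-7-poor conceptuses. Both let-7-rich nuclear transfer conceptuses were female and all 4 let-7-poor ones were male, so within nuclear transfer let-7 share and sex cannot be told apart. The tissue was intercaruncular endometrium, taken from the horn holding the conceptus in 9 of 9 let-7-rich and 8 of 9 let-7-poor animals. The identity of the tissue was not checked against marker genes, because the endometrial table gives 12 of its 27619 rows a symbol and the rest an Ensembl identifier alone, and none of the marker genes is among the 12. Replicate numbers below are those of the endometrium labels.

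let-7 is a microRNA family conserved across animals whose members share 1 seed, the short stretch that pairs with target messenger RNAs. Its levels are low in pluripotent cells, where the LIN28 proteins block its maturation, and increase as cells differentiate. Around day 16 the elongating bovine conceptus signals its presence to the uterus mainly through interferon tau. EVs are a further route by which conceptus RNA could reach endometrial cells, and the series title names EV miRNA cargo as part of how the endometrium senses the conceptus.

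The summed let-7 share ran from 19.2 to 29.1% of EV counts in the let-7-rich libraries (median 21.1%) and from 2.43 to 9.98% in the let-7-poor ones (median 6.44%). The highest single library was in vivo male 3 at 29.1% (95% Wilson interval 28.9 to 29.2%) and the lowest nuclear transfer male 3 at 2.43% (2.31 to 2.55%). Such intervals cover counting error alone. At the upper limit of membership, IVF female 6 stood inside at 19.2% (18.9 to 19.4%) and nuclear transfer male 5 outside at 18.1% (17.8 to 18.4%). At the lower limit, IVF male 1 stood inside at 9.98% (9.69 to 10.3%) and nuclear transfer male 1 outside at 10.2% (10.02 to 10.4%), with overlapping intervals. Neither limit falls at a wide gap between neighbouring libraries.

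**Figure D1:**
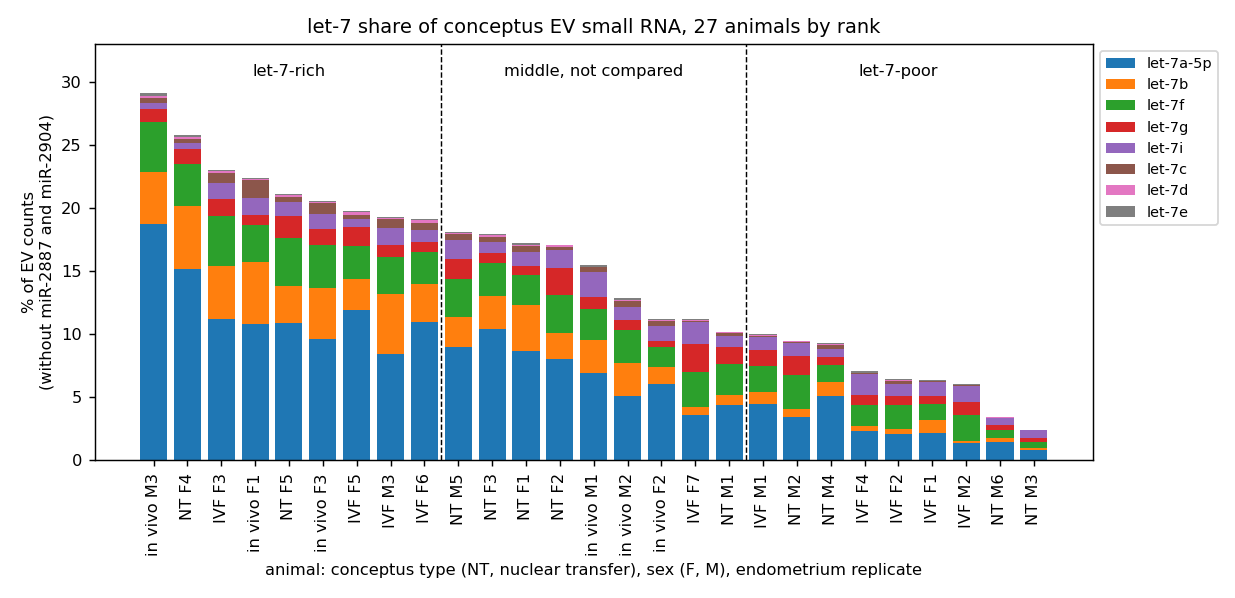
Share of EV counts (percent, without miR-2887 and miR-2904) held by each of the 8 let-7 entries in the 27 animals, ranked from left to right; each stacked bar is 1 EV library and dashed lines separate the 9 let-7-rich, the 9 middle and the 9 let-7-poor animals. let-7a-5p is the largest part of the tall bars (8.43 to 18.8% in the let-7-rich group) and is far smaller in the short ones (0.791 to 5.10% in the let-7-poor group).

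The members did not scale together. let-7b, which has a partner entry of identical counts (miR-3596) outside the rule, had a median of 4.11% in let-7-rich libraries (2.39 to 5.04%) and 0.424% in let-7-poor ones (0.181 to 1.14%), a ratio of medians of 9.69. let-7c had 0.607% (0.334 to 1.47%) in let-7-rich and 0.0775% (0.0237 to 0.315%) in let-7-poor libraries, a ratio of 7.83. let-7a-5p, the most abundant member, had 10.9% (8.43 to 18.8%) and 2.17% (0.791 to 5.10%), a ratio of 5.05. let-7d and let-7e, the least abundant, had ratios of 3.46 and 2.49. The groups did not overlap for let-7a-5p, let-7b, let-7c and let-7e.

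At the other end, let-7f had 3.32% in let-7-rich libraries (2.49 to 3.99%) and 1.68% in let-7-poor ones (0.514 to 2.68%). let-7g had 1.15% (0.815 to 1.73%) in let-7-rich and 0.749% (0.283 to 1.47%) in let-7-poor libraries. let-7i had 1.162% (0.489 to 1.38%) in let-7-rich and 1.03% (0.555 to 1.63%) in let-7-poor libraries, nearly the same range. The groups overlapped for let-7d, let-7f, let-7g and let-7i. The makeup of the family thus differed with its sum: let-7a-5p held a median of 51.5% of let-7 counts in let-7-rich and 33.9% in let-7-poor libraries, while let-7i held 5.496% in let-7-rich and 16.1% in let-7-poor libraries. By the ratio of medians, let-7b, let-7c and let-7a-5p differed most between the groups. For let-7f, every let-7-poor library other than nuclear transfer male 2 (2.68%) lay below every let-7-rich library. For let-7g, so did all but IVF male 1, IVF male 2 and nuclear transfer male 2. The lowest in both were nuclear transfer male 3 and male 6, with 0.514 and 0.598% of let-7f and 0.283 and 0.389% of let-7g.

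Other vesicle miRNAs differed between the same libraries. They are given as shares of the counts left after the 8 let-7 entries of the rule, miR-2887 and miR-2904 were removed. let-7 entries outside the rule, among them miR-3596 with the counts of let-7b, stay in these counts. The values share their libraries with the rule. Of 75 entries with a mean share of at least 0.1%, with identical entries counted once, 7 lay higher in every let-7-rich than in any let-7-poor library and 4 lay lower, 14.7% in all. miR-10a, a miRNA encoded in a HOX cluster, had a median of 3.45% in let-7-rich (1.89 to 7.74%) and 0.322% in let-7-poor libraries (0.0747 to 0.887%). miR-10b did not follow it. With let-7 kept in the denominator, its median was 0.177% in let-7-rich and 0.262% in let-7-poor libraries. miR-200c and miR-200b, which maintain the epithelial state by repressing ZEB factors, had 2.94% and 2.57% in let-7-rich against 0.5002% and 0.837% in let-7-poor libraries. For miR-200c the lowest let-7-rich library had 1.54% and the highest let-7-poor one 1.25%. For miR-200b these were 1.86% and 1.85%, so its groups barely parted. With the 8 let-7 entries kept in the denominator the groups of miR-200b overlapped (1.44% and 1.67%). miR-200a had medians of 1.79% and 0.502%, and its groups overlapped (lowest let-7-rich 1.27%, highest let-7-poor 1.54%). miR-99b and miR-125a, which are encoded in 1 cluster with let-7e, had 0.360% and 0.406% in let-7-rich against 0.0744% and 0.0644% in let-7-poor libraries. The other 2 of the 7 were miR-129 and miR-129-5p, at 1.65% and 1.64% in let-7-rich against 0.206% and 0.200% in let-7-poor libraries. The values of these 2 entries were so alike that they are not separate evidence.

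miR-7, best known from neural and endocrine tissue, ran the other way. Its median was 0.946% in let-7-rich (0.538 to 1.29%) and 10.5% in let-7-poor libraries (3.75 to 14.9%). The other entries lower in every let-7-rich library were miR-2889, miR-2892 and miR-3533. miR-2892 had 0.00690% in let-7-rich and 0.741% in let-7-poor libraries. The abundant miR-148a (entered with identical counts as miR-148d) and miR-21-5p had overlapping groups, with medians of 14.6% and 3.36% in let-7-rich against 17.7% and 4.59% in let-7-poor libraries.

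**Figure D2:**
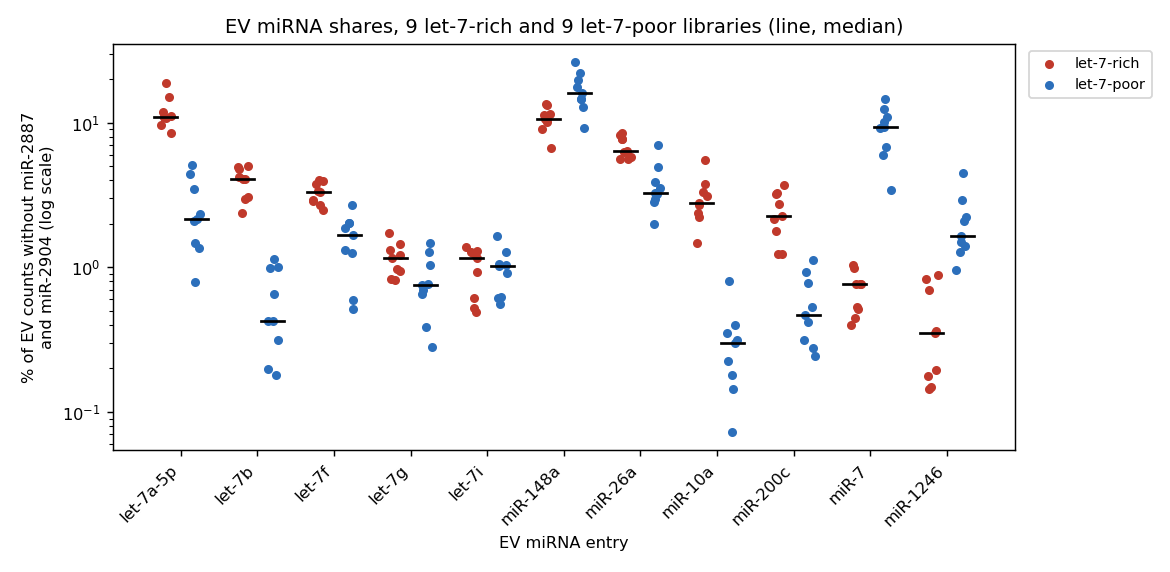
Share of EV counts (percent of counts without miR-2887 and miR-2904, log axis) of 5 let-7 members and 6 other miRNAs in the 9 let-7-rich (left of each pair) and 9 let-7-poor libraries (right); points are libraries and lines medians. let-7f, let-7g, let-7i, miR-148a and miR-26a overlap between groups, while miR-10a and miR-200c are higher and miR-7 and miR-1246 are lower in every let-7-rich library.

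The share of EV counts taken by miR-2887 and miR-2904 also separated the groups, although the rule leaves both entries out. They held 4.11 to 24.0% of all counts in let-7-rich libraries (median 13.001%) and 39.1 to 76.3% in let-7-poor ones (median 59.4%). The groups did not overlap, so let-7-rich animals are also the animals with few such reads. EV totals ran from 41396 to 603579 counts (median 105448) in let-7-rich and from 119491 to 179026 counts (median 136720) in let-7-poor libraries. The part these quantities play in the endometrial comparison was not tested beyond the fits that hold them as covariates.

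**Figure D3:**
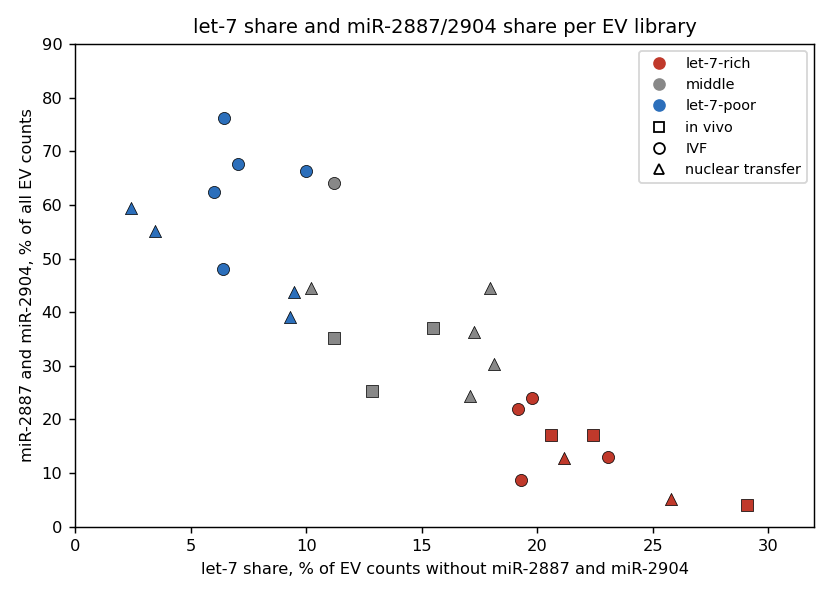
Summed let-7 share (x axis, percent of EV counts without miR-2887 and miR-2904) against the share of miR-2887 and miR-2904 (y axis, percent of all EV counts), 1 point per EV library of the 27 animals; colour gives the group and marker the conceptus type. All let-7-rich libraries lie at or under 24.0% on the y axis and all let-7-poor ones at or above 39.1%.

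In the endometrium, no gene passed the test between let-7-rich and let-7-poor animals. With conceptus type as a covariate, edgeR called 0 of 14530 genes (0% of those tested) at an adjusted p under 0.05, and the smallest adjusted p was 0.556. At an unadjusted p under 0.05 lay 942 genes, 6.48% of those tested, 397 of them higher (2.73%) and 545 lower (3.75%) in let-7-rich endometrium. Without nuclear transfer male 6, the let-7-poor animal sampled in the contralateral horn, this count was 1460, and with any 1 library left out it ran from 671 to 1460. limma voom, with library quality weights, called 0 genes, with 1422 at an unadjusted p under 0.05. DESeq2 called 13 of the 14878 genes it adjusted (0.0874%). Of these, 3 (0.0202% of genes) were higher and 10 (0.0672%) lower in let-7-rich endometrium. Of the 13, 12 were tested by edgeR and all 12 had an unadjusted p under 0.05 there, with a smallest adjusted p of 0.556. Both tools used the same 18 libraries, so this is not separate support. The levels of only 2 genes did not overlap between the groups, 1 higher (0.00688% of those tested) and 1 lower (0.00688%) in let-7-rich endometrium, 0.0138% in all. All 3 in vivo libraries are let-7-rich, so with type in the fit they inform the spread, and the fold rests on the 15 IVF and nuclear transfer libraries.

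Fitted differences were small for most genes. The median log2 fold over all 14530 genes was 0.00036, with 90% of genes between -0.41 and 0.36, and 50.1% of genes had a positive fold. A fold beyond 1 on the log2 scale in either direction was fitted for 124 genes, 0.853% of those tested. The 95% interval of the log2 fold lay wholly between -1 and 1 for 12911 genes, 88.9% of those tested. Among the third of genes with the highest mean level this share was 96.2%, and among the third with the lowest it was 75.0%. The median SE was 0.14 on the log2 scale.

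**Figure D4:**
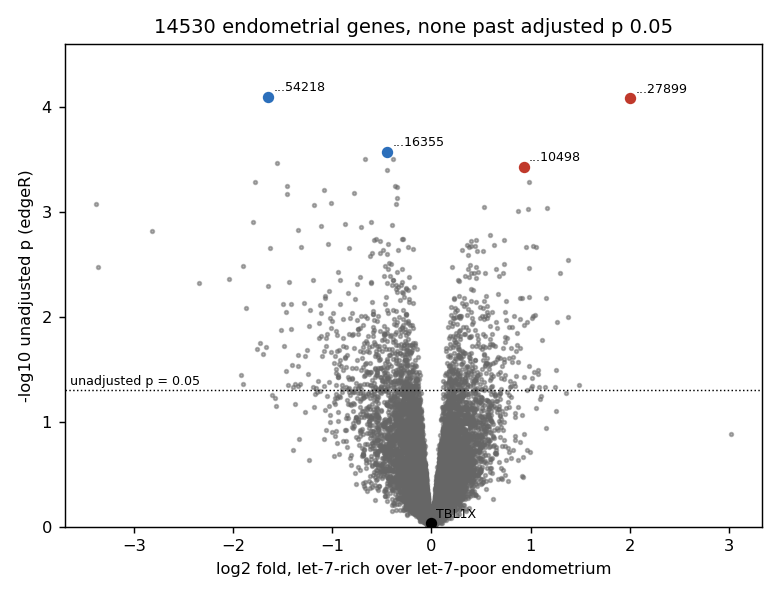
Log2 fold of each of 14530 endometrial genes (x axis, let-7-rich over let-7-poor, edgeR with conceptus type as a covariate) against the −log10 of its unadjusted p (y axis); points are genes, the dotted line marks an unadjusted p of 0.05, and the coloured points are the 4 genes described by identifier, with TBL1X in black. None passed the adjusted threshold, the smallest adjusted p being 0.556.

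The files pair no Ensembl identifier with a name, so the genes nearest to the threshold can be described by their levels alone, and what they encode is not stated here. The 2 with the smallest p in each direction were ENSBTAG00000027899 and ENSBTAG00000010498 (higher) and ENSBTAG00000054218 and ENSBTAG00000016355 (lower). Each had an adjusted p = 0.556 by edgeR, and limma voom called none of them. DESeq2 called all 4, with adjusted p = 0.00178 for ENSBTAG00000027899, 0.0498 for ENSBTAG00000010498, 0.00115 for ENSBTAG00000054218 and 0.0498 for ENSBTAG00000016355. Levels are CPM (library-scaled counts) after TMM scaling, a correction for the makeup of each library.

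ENSBTAG00000027899 ranged from 1.91 to 22.9 CPM in let-7-rich endometrium (median 8.17) and from 2.25 to 3.48 CPM in let-7-poor endometrium (median 2.84). Of the 9 let-7-rich libraries, 8 lay above the let-7-poor median, and the exception, in vivo female 3, was the lowest of all 18. The log2 fold was 2.00 (SE 0.39). Among IVF animals it averaged 12.7 ± 6.60 CPM (SD, n = 4) in let-7-rich and 2.55 ± 0.257 CPM (n = 5) in let-7-poor endometrium. Among nuclear transfer animals it had 8.17 and 9.69 CPM in the 2 let-7-rich libraries and 3.13 ± 0.325 CPM (n = 4) in the let-7-poor ones. The 3 in vivo libraries spread from 1.91 to 22.9 CPM. Leaving out in vivo female 1 gave this gene an adjusted p = 0.0398 by edgeR, and leaving out all 3 in vivo libraries gave 0.0087. Over the other alternatives by edgeR or limma voom it passed in none. With the share of miR-2887 and miR-2904 as a covariate its log2 fold was 2.93.

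ENSBTAG00000010498 ranged from 82.1 to 285 CPM in let-7-rich endometrium (median 139) and from 60.5 to 110 CPM in let-7-poor endometrium (median 83.0). The groups overlapped between 82.1 and 110 CPM. The log2 fold was 0.93 (SE 0.21). It was 0.57 with the share of miR-2887 and miR-2904 as a covariate and 0.37 among male conceptuses alone. IVF female 6 at 285 CPM was the highest library, and without it the log2 fold was 0.69.

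ENSBTAG00000054218 ranged from 3.36 to 90.3 CPM in let-7-rich endometrium (median 29.8) and from 23.5 to 85.2 CPM in let-7-poor endometrium (median 66.4). The groups overlapped over nearly the whole range, because 2 of the 3 in vivo libraries, with 90.3 and 73.7 CPM, were the highest of the let-7-rich group. Among IVF animals it averaged 25.9 ± 7.25 CPM (SD, n = 4) in let-7-rich and 72.6 ± 13.4 CPM (n = 5) in let-7-poor endometrium. Among nuclear transfer animals it had 3.36 and 20.5 CPM in let-7-rich endometrium and 45.4 ± 21.9 CPM (n = 4) in let-7-poor endometrium. The log2 fold was -1.64 (SE 0.32) with type in the fit and -0.71 without it.

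ENSBTAG00000016355 ranged from 63.3 to 75.6 CPM in let-7-rich endometrium (median 68.7) and from 69.9 to 121 CPM in let-7-poor endometrium (median 96.1). All 9 let-7-rich libraries lay below the let-7-poor median and within a narrow band. The log2 fold was -0.45 (SE 0.10), and -0.26 with the share of miR-2887 and miR-2904 as a covariate. Among IVF animals it was -0.59 (SE 0.10) and among nuclear transfer animals -0.20 (SE 0.17). TBL1X, part of a nuclear receptor corepressor complex and the 1 tested gene with a symbol, averaged 21.5 ± 1.46 CPM in let-7-rich and 22.03 ± 1.90 CPM in let-7-poor endometrium (SD, n = 9 each). The log2 fold of TBL1X was -0.0076, with a 95% interval from -0.17 to 0.16 (edgeR, adjusted p = 0.993).

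**Figure D5:**
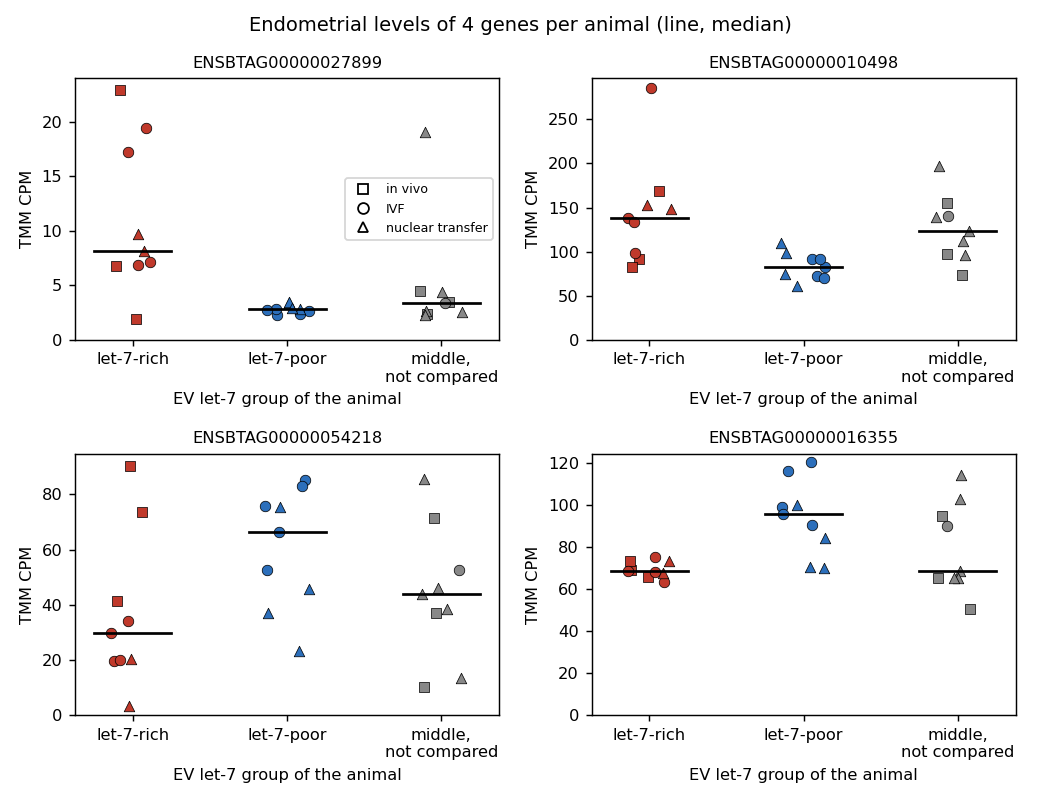
Endometrial level (TMM CPM, linear axes from 0) of the 4 genes in the 9 let-7-rich, 9 let-7-poor and 9 middle animals; points are libraries, markers give the conceptus type and lines the median. ENSBTAG00000027899 lies between 2.25 and 3.48 CPM in every let-7-poor animal and reaches 22.9 CPM in the let-7-rich group, while ENSBTAG00000016355 stays between 63.3 and 75.6 CPM in the let-7-rich group.

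The comparison was also made within conceptus types, whose libraries do not overlap. Among 9 IVF animals alone (4 let-7-rich, 5 let-7-poor), edgeR called 0 of 14729 genes. At an unadjusted p under 0.05 lay 1721 genes (11.7% of those tested), and the smallest adjusted p was 0.0555, that of ENSBTAG00000054218. Among 6 nuclear transfer animals alone (2 let-7-rich, 4 let-7-poor), edgeR called 0 of 15043 genes, and 473 of them (3.14%) had an unadjusted p under 0.05. Of 14593 genes tested in both, 49.0% had the same sign of fold in the 2 types. Of the 1709 at an unadjusted p under 0.05 in IVF animals, 52.7% had the same sign in nuclear transfer animals, close to the share over all genes. A test of whether the fold differs between the 2 types called 0 of 14767 genes (edgeR), and 859 of them (5.82%) had an unadjusted p under 0.05.

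Whole-library features of the endometrium were compared over the same 18 animals by a two-sided exact permutation test, with Benjamini-Hochberg adjustment over 7 features, and none passed. Unlike the gene test, this test does not hold conceptus type, and all 3 in vivo libraries are let-7-rich, so over the 18 animals let-7 share and type are mixed. The values within IVF and within nuclear transfer animals are free of this mixing with type. Within nuclear transfer, however, let-7 share and conceptus sex cannot be told apart. Endometrium totals ran from 5951050 to 7367028 counts in let-7-rich and from 5525891 to 7104437 counts in let-7-poor animals (n = 9 each, exact p = 0.480). Features below are given as mean ± SD. Genes with a count numbered 19129 ± 138 in let-7-rich and 19027 ± 79.2 in let-7-poor libraries (exact p = 0.0730, adjusted p = 0.207). Within IVF animals they numbered 19155 in let-7-rich and 19065 in let-7-poor libraries (exact p = 0.222), and within nuclear transfer animals 18960 and 18981 (exact p = 1.00). On the second principal component of log2 CPM, which held 8.65% of the variance, let-7-rich libraries averaged 7.48 ± 14.7 and let-7-poor ones -7.48 ± 11.98 (exact p = 0.0323, adjusted p = 0.207). On the first, which held 24.3%, the averages were 10.2 ± 18.8 in let-7-rich and -10.2 ± 27.8 in let-7-poor libraries (exact p = 0.0889, adjusted p = 0.207). Within IVF animals the first component averaged 9.42 ± 14.4 in let-7-rich (n = 4) and -21.7 ± 16.5 in let-7-poor libraries (n = 5, exact p = 0.0317, adjusted p = 0.222). Within nuclear transfer animals the first component averaged 0.308 in let-7-rich and 4.29 in let-7-poor libraries (exact p = 1.00, where the smallest possible is 0.133). Within nuclear transfer animals the second component averaged 9.36 in let-7-rich and -11.0 in let-7-poor libraries (exact p = 0.133), and within IVF animals 6.63 and -4.70 (exact p = 0.365).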

How the data were processed

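Per the labels' protocols, endometrial messenger RNA was purified by its poly(A) tail and the second cDNA strand carried dUTP, and the small RNA libraries of the vesicles were selected for length. Per the submitters' processing notes, reads were placed on ARS-UCD1.2, and cutadapt, STAR, featureCounts, Bowtie and DESeq2 are named without versions or roles; the strand setting is not stated there. The authors deposited endometrial values as estimated counts for each gene, before any normalization; 85.2% of values above 0 were whole within 0.004, and all were rounded. They deposited EV values as whole counts per miRNA entry. Of 27607 Ensembl identifiers, 0 have a name in the table used here, and 0 of the 424 symbols of 21 gene lists (let-7 targets, interferon-stimulated genes and cell type markers among them) are in the files' gene column, so all 21 lists are void.

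The test was edgeR's (version 4.0.16, R 4.3.3): TMM, filterByExpr over the 2 groups (minimum count 10, minimum total 15), robust quasi-likelihood F test, two-sided, Benjamini-Hochberg adjustment over all genes tested, threshold 0.05, conceptus type as a covariate. SEs come from the fold and its F statistic, and 95% intervals from the t distribution on the degrees of freedom of the fit. Principal components used log2 CPM with a prior count of 2. Scripts were tested on simulated data. Alternatives used limma 3.58.1 (voom with quality weights), DESeq2 1.42.0, and other covariates, groupings and libraries. The rule for genes without names takes the smallest p in each direction at a mean log2 CPM of at least 1. Members, lists and tests were chosen with earlier results of these data known. Libraries come from different animals, so p-values measure the spread between animals.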

Additional observations from a re-analysis of the deposited data

Results flagged for a closer look

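In 46 sets of values, each the 9 libraries of 1 group, the gap between the most extreme library and the next was compared with the whole range by Dixon's criterion. It was passed in 2 sets. Chance alone flags about 1 set in 20 where the values had no part in choosing the groups. The sets include EV let-7 shares, which chose the groups, so this rate does not hold for them. In vivo female 1 held let-7c at 1.47% of EV counts, far above the other let-7-rich libraries. For this reason the let-7c value is given as a description alone. IVF female 6 had 285.4 CPM of ENSBTAG00000010498, far above the other let-7-rich endometrium libraries.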

How the results depend on the processing

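The number of endometrial genes called was 0 in the main comparison and in 40 of 43 alternatives, of which 2 add no fit of their own: leaving out the contralateral library is leaving out nuclear transfer male 6, and adding the other let-7 entries to the sum gave the same groups. It was 13 with DESeq2, 1 without the in vivo libraries (an alternative chosen after seeing the data) and from 0 to 1 with 1 library left out, the 1 being ENSBTAG00000027899 without in vivo female 1. Against 942 genes at an unadjusted p under 0.05, there were 1422 with limma voom, 1460 without the 1 contralateral library (nuclear transfer male 6), 1524 for 13 against 13 animals, 1721 for IVF alone, 1672 for IVF alone with a sex covariate (chosen after seeing the data), 473 for nuclear transfer alone, 1447 for female and 300 for male conceptuses alone. With sex added to type as a covariate this count was 784, and with 1 library left out it ran from 671 to 1460. The cause was not tested. The 4 genes described by identifier kept their direction in all 43 alternatives each. They were chosen by their p in the main fit, and most alternatives share most of its libraries, so this is not separate support.

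Same-numbered libraries come from different animals, and whether they share a day of collection was not tested. Deviations of same-numbered libraries had a mean correlation of -0.0558 over 17 pairs, against 0.00856 over 110 pairs of different number. Of 18 libraries, 2 correlated best with their own number. With the replicate block edgeR called 0 genes. ENSBTAG00000054218 had a log2 fold of -0.91 when animals were ranked without let-7a-5p, -0.90 for 13 against 13 and -0.80 when ranked within type. ENSBTAG00000010498 had 0.51 for 13 against 13. ENSBTAG00000016355 had -0.30 when ranked within type. TBL1X, at -0.0076, changed sign to 0.0002 with no low count filter, 0.0037 without the contralateral library, 0.0004 with the miR-2887 and miR-2904 share as a covariate, 0.0042 with the replicate block, 0.0384 for nuclear transfer alone and 0.0169 for males alone, and ran from -0.0332 to 0.0156 with 1 library left out. With all EV counts as the denominator, 9 let-7-rich and 8 let-7-poor animals were shared with the main ranking. The number of animals limits the comparison, with 6 in nuclear transfer.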

Other observations

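The 9 animals between the groups had a let-7 share of 10.2 to 18.1% (median 15.5%). They entered no fold of the main comparison, only those alternatives that regrouped the animals or used all 27. miR-2887 and miR-2904 held 24.4 to 64.1% of their EV counts. Their endometrium had 2.25 to 19.1 CPM of ENSBTAG00000027899 (median 3.39), a median nearer to that of the let-7-poor group, with nuclear transfer female 1 the highest. They had 73.8 to 198 CPM of ENSBTAG00000010498 (median 123), a median nearer to that of the let-7-rich group. ENSBTAG00000054218 stood at 10.2 to 85.5 CPM (median 43.9) and ENSBTAG00000016355 at 50.6 to 114 CPM (median 68.9). In vivo male 1, the library with the highest endometrium total of the 27 at 9815246 counts, is among these 9 and so outside the comparison.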
